A study of Mus musculus with 9 samples.

Results

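The genes described here drive the cell division cycle or copy DNA. They are 40 genes, chosen by symbol for their roles, out of 20325 genes in each table, and each of the 40 was listed for all 9 liver libraries. The choice was made with earlier results of these data known. Shares of the 40 genes, or of the other lists, set beside all genes are therefore descriptions and not tests. They fall into 14 genes of G1/S control, 13 genes of DNA replication and 13 genes of mitosis. The livers came from male C57BL/6J mice kept on chow, with 3 mice in each of 3 groups. The GF mice were germ-free throughout. The GF+SCFA mice were also germ-free, and their drinking water held the short-chain fatty acids acetate at 67.5 mM, propionate at 25.9 mM and butyrate at 40 mM. The ConvD mice (conventionalized) were born germ-free and received cecal contents of conventionally raised donors by a single gavage at 15 weeks of age. They were dissected 4 weeks later. Dissection at 19 weeks is given for the mice of all 3 groups. The series' design text gives 14 weeks for all mice, and the labels do not settle which age holds. Mice were housed in cages by colonization status, so cage and group cannot be told apart, and the time of day of dissection is not given in the labels. The comparisons ask whether gut microbes, or the fatty acids that they make, change gene expression in the liver.

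A cell enters the cycle when D-type cyclins with their kinases Cdk4 and Cdk6, and then E-type cyclins with Cdk2, phosphorylate the retinoblastoma proteins and release E2F transcription factors, which switch on the genes for DNA replication. Origins of replication are licensed by Cdc6 and Cdt1, which load the Mcm2 to Mcm7 helicase, and later in the cycle Cdk1 with cyclins A and B, the Aurora and Polo kinases and the spindle checkpoint proteins carry the cell through mitosis. Most hepatocytes of an adult mouse are quiescent and often polyploid, and return to the cycle after loss of tissue, while blood-derived and lining cells of the liver renew on their own schedules.

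Libraries held 18193071 to 21627696 expected counts, so that 1 count stood for 0.0470 to 0.0567 CPM (counts scaled to a common library total, here by the trimmed mean of M-values, TMM). GF replicate 3 and ConvD replicate 3 stood apart from the other livers of their groups: the chi-square of counts per degree of freedom was 54.4 and 40.6 between GF replicate 3 and the other two, against 15.3 between those, and 51.1 and 34.2 between ConvD replicate 3 and the other two, against 21.4. All 9 listed hepatocyte markers were detected in every library, at 101300 to 127600 CPM in sum. CPM compares 1 gene between livers, and TPM, the authors' value per transcript length, compares genes.

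Levels of cell cycle genes were low in these livers, and lowest for mitosis. The median level over the 9 livers was 3.13 TPM for the 14 G1/S genes, 2.24 TPM for the 13 replication genes and 0.317 TPM for the 13 mitosis genes, beside 3.64 TPM for the 15830 genes with any count. The most abundant were Pcna at 30.4 TPM, Tk1 at 28.0 TPM, Cdk4 at 25.9 TPM and Ccnd3 at 20.5 TPM. The highest mitosis gene was Birc5 at 0.749 TPM, and the lowest of all was Bub1 at 0.04 TPM. The mean expected count was under 50 for 19 of the 40 genes, including all 13 mitosis genes, and under 10 for 8. Too few counts were left to test Cdc6, Ccnb1, Ccnb2, Bub1, Plk1 and Aurkb, so 34 genes were tested: 14 of G1/S control, 12 of replication and 8 of mitosis. In whole liver RNA, a low level in all cells and a high level in a few cells cannot be told apart, nor can fewer cells of a type and less RNA per cell.

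**Figure D1:**
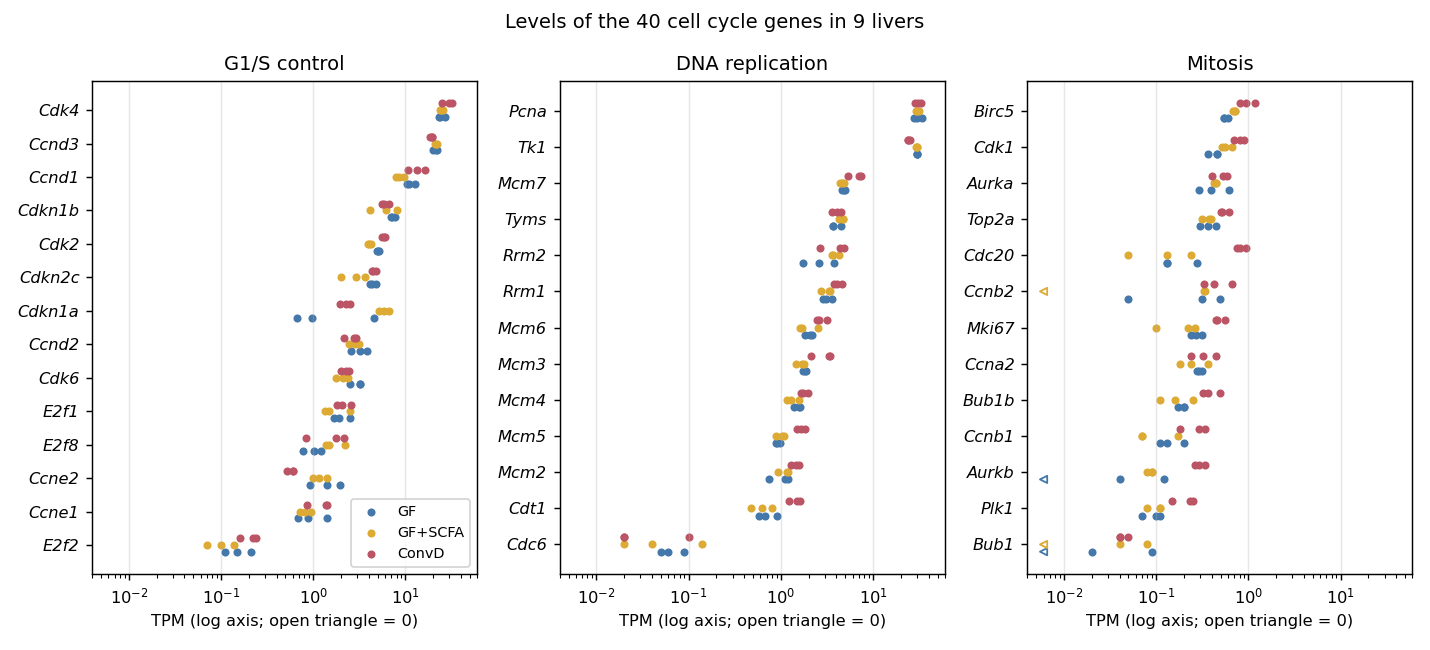
Level of each of the 40 genes in each liver (TPM, log axis) by role, with 1 point per liver, coloured by group, and open triangles at the left for a library listed at 0. Mitosis genes sit at or below about 1 TPM in every group, while Pcna, Tk1, Cdk4 and Ccnd3 lie near or above 20 TPM.

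Colonized livers had more RNA of the replication genes Cdt1, Mcm3 and Mcm5 and of the mitosis genes Cdk1 and Cdc20 than germ-free livers, and less of cyclin E2 and of thymidine kinase. These are the 7 of 34 tested genes with an adjusted p under 0.05 between ConvD and GF, a threshold that 12.8% of all 12037 genes tested passed (5.93% higher and 6.9% lower). Cdc20, Bub1b and E2f2 reached the test only with the help of a group under comparison, having fewer than 3 libraries above the count filter outside it, so a call of theirs is no support for a count. Of the 31 genes that did not need that help, 6 were called (19.4%), beside 12.9% of the 11736 such genes in all: 4 higher (12.9%, beside 5.81%) and 2 lower (6.45%, beside 7.06%). By role, the G1/S list had 0 higher and 1 lower of 13, the replication list 3 higher and 1 lower of 12, and the mitosis list 1 higher and 0 lower of 6. The median log2 fold change of these genes was 0.01 for G1/S, 0.37 for replication and 0.36 for mitosis, beside 0.00 for all such genes. With normalization by the upper quartile the genes changed were 8 (Mcm7 added), and by library totals alone 9 (Mcm7 and Mki67 added); over all genes, the share of calls that were higher was 46.2% with TMM, 66.1% with the upper quartile and 73.1% with library totals. Of the 7, DESeq2 called 4 (Cdk1 and Cdt1 lost, no adjusted p for Cdc20). Leaving out ConvD replicate 1 left 3 (Cdk1, Cdt1, Mcm3 and Tk1 lost), ConvD replicate 2 also 3 (Cdk1, Cdt1, Mcm3 and Mcm5 lost) and GF replicate 1 left 4 (Cdk1, Cdt1 and Mcm3 lost). Without GF replicate 3, 5 genes were called (Cdk1, Cdt1 and Mcm3 lost, Cdkn1a added), and without ConvD replicate 3, 8 (Cdk1 lost, Mcm7 and E2f8 added).

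Counting livers rather than tests, all ConvD livers lay above all GF livers for 13 of the 40 genes, against 13.6% of the 15830 genes with a count, and below for 5, against 12.6%. The 13 were 0 G1/S genes, 6 replication genes (Cdt1, Mcm3, Mcm4, Mcm5, Mcm7 and Rrm1) and 7 mitosis genes (Cdk1, Mki67, Top2a, Cdc20, Bub1b, Plk1 and Aurkb). The 5 were 4 G1/S genes (Ccnd3, Cdk6, Ccne2 and Cdkn1b) and Tk1. Summed over its 13 genes, the mitosis list gave 7.33, 7.32 and 6.995 CPM in GF, 7.77, 5.71 and 7.42 CPM in GF+SCFA and 10.4, 11.8 and 13.1 CPM in ConvD, from 115 to 247 counts a library. The lowest ConvD sum lay above the highest of the 6 germ-free sums. A wider list of 68 other mitosis genes did not show this. Its sums overlapped, at 155.8 to 158.9 CPM in GF, 156.7 to 161.7 CPM in GF+SCFA and 156.3 to 159 CPM in ConvD. Of these 68 genes 36 had enough counts to be tested, and a sum rests mostly on the most abundant genes of its list. The replication sums were 93.3 to 95.6 CPM in GF, 94.2 to 99.8 CPM in GF+SCFA and 99.3 to 100.0 CPM in ConvD, and the G1/S sums 124 to 130, 117 to 123 and 115 to 128 CPM. A wider list of 49 other replication genes had sums of 380.4 to 405.5 CPM in GF, 391.2 to 405.6 CPM in GF+SCFA and 425.9 to 455.1 CPM in ConvD. Its lowest ConvD sum lay above all germ-free sums.

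**Figure D2:**
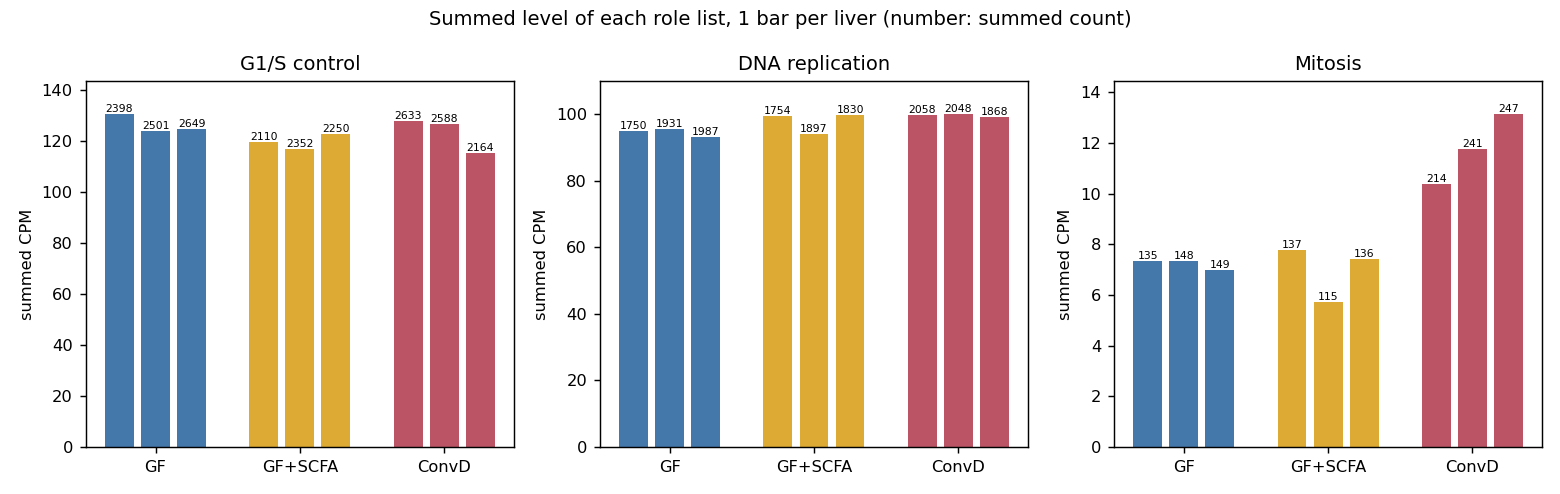
Summed CPM of the G1/S, replication and mitosis lists, 1 bar per liver with axes from 0 and the summed count above each bar. The mitosis sums of the 3 ConvD livers (10.4 to 13.1 CPM) are all above those of the 6 germ-free livers (5.71 to 7.77 CPM), while the G1/S sums of the groups overlap.

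Markers of some other cells were also higher in ConvD than in GF, and those of others were not. Their counts stand beside 5.93% of all genes tested called higher and 6.9% called lower. Of the 12 Kupffer cell and macrophage markers, 8 were higher in ConvD than in GF, and their sum was 388 to 465 CPM in GF, 414 to 512 CPM in GF+SCFA and 541 to 785 CPM in ConvD. The 9 neutrophil markers had sums of 5.05 to 6.29, 4.09 to 5.10 and 12.7 to 18.7 CPM; Ltf, Camp and Mpo were at 0 in all 6 germ-free livers. The 4 that were called (S100a8, S100a9, Ltf and Ngp) passed the count filter through the ConvD livers, so their number is no support. Cebpe, the 1 tested marker that passed without them, was not called (log2 fold change 0.17, adjusted p = 0.4985). Elane had 1, 1 and 2 counts in GF and 2, 5 and 0 in ConvD. For B and plasma cells 1 of 4 tested markers rose (Igj), with sums of 2.52 to 3.53, 1.94 to 2.67 and 6.38 to 7.72 CPM. For erythroid cells 0 of 8 tested markers passed in edgeR, with 3 of them under an unadjusted p of 0.05, and 2 passed in DESeq2. The erythroid sums were 270 to 374, 229 to 324 and 301 to 1008 CPM. For T and NK cells 0 of 7 passed in edgeR and 0 in DESeq2, with 0 under an unadjusted p of 0.05 in edgeR, and sums of 5.39 to 6.24, 5.96 to 8.12 and 6.30 to 7.97 CPM. Of 9 sinusoidal endothelium markers 1 was called, Lyve1, and it was lower in ConvD (log2 fold change -0.85, adjusted p = 0.0359). Of stellate cell and fibroblast markers 0 of 9 were called, with 0 under an unadjusted p of 0.05 and a median log2 fold change of -0.02, and of cholangiocyte markers 0 of 5, with 1 under an unadjusted p of 0.05. Of 9 hepatocyte markers 1 was higher, Ttr (log2 fold change 0.36, adjusted p = 0.0143), and 1 was lower, Cps1 (log2 fold change -0.67, adjusted p = 0.00263). The part of these cells in the levels of the cell cycle genes was not tested.

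**Figure D3:**
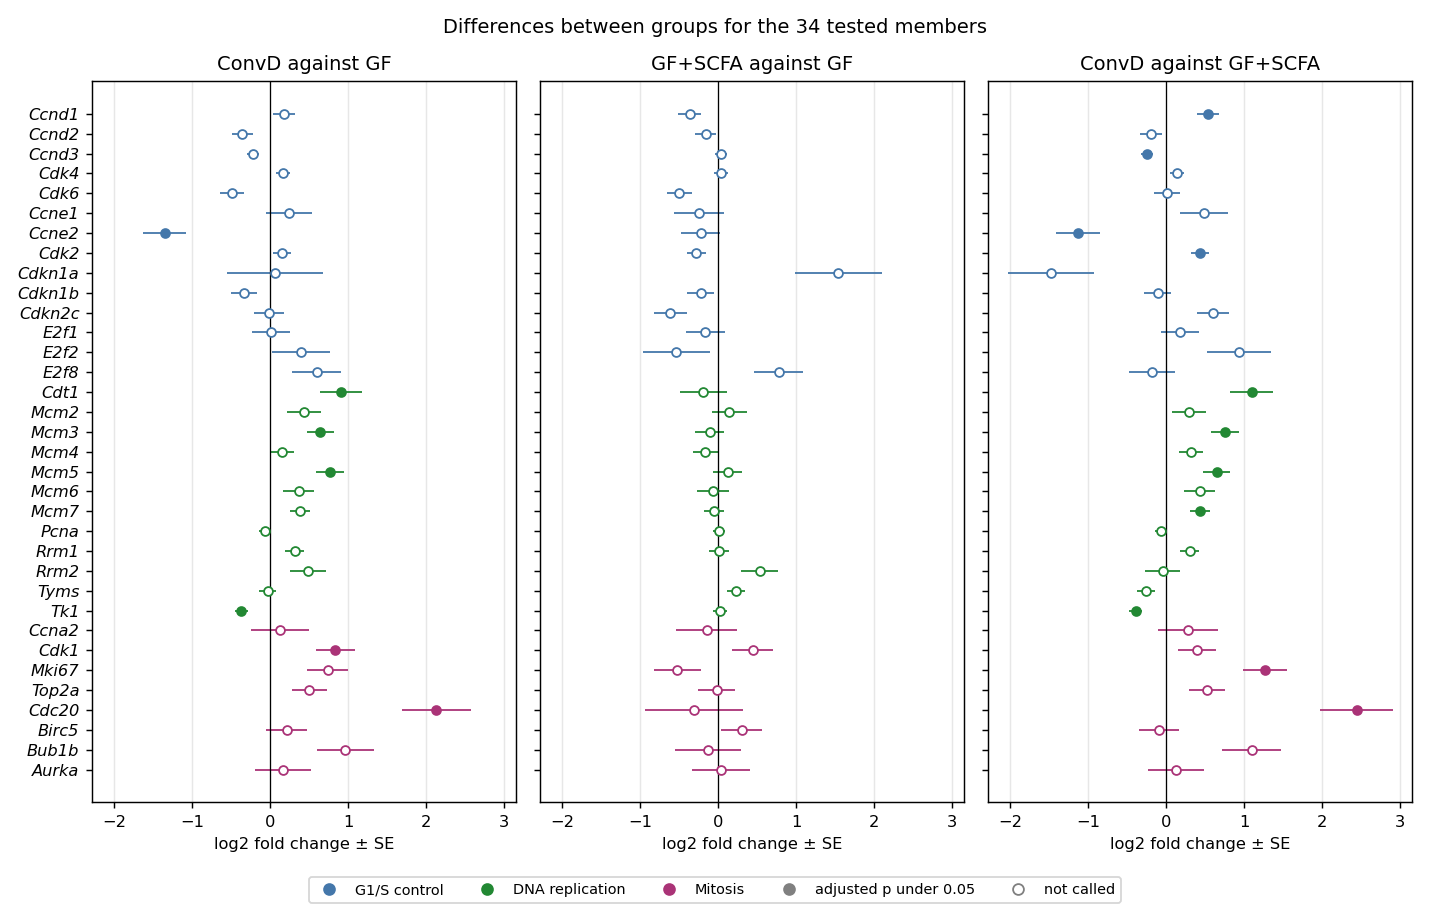
Log2 fold change with its standard error for the 34 tested genes in the 3 comparisons, coloured by role, with filled points for an adjusted p under 0.05. Filled points appear for 7 genes in ConvD against GF, for none in GF+SCFA against GF and for 11 in ConvD against GF+SCFA; the comparisons share livers.

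Among the G1/S genes, cyclin E2 was the one that changed between ConvD and GF. Ccne2, an E-type cyclin that activates Cdk2 at entry into S phase, was at 3.86, 1.88 and 2.54 CPM in the GF livers, 1.99, 2.73 and 2.29 CPM in the GF+SCFA livers and 0.922, 1.12 and 1.17 CPM in the ConvD livers. The 3 ConvD livers were the lowest of the 9. Ccne2 fell in ConvD against GF (log2 fold change -1.35 ± 0.27, adjusted p = 0.00685), and it was called in each of the 9 fits that leave out 1 liver. Its partner paralog Ccne1 was at 0.798 to 1.79 CPM in GF and 1.06 to 1.66 CPM in ConvD, with no difference called (log2 fold change 0.24 ± 0.30, adjusted p = 0.645). The annotation (GENCODE M21) has Ints8 on the opposite strand over 5622 bases of Ccne2, and the strand setting of the counting is not given in the sources used here; Ints8 had a log2 fold change of -0.33 (adjusted p = 0.0899).

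The D-type cyclins, which carry growth signals into the cycle, did not move together. Ccnd1 was at 31.8, 28.3 and 23.8 CPM in GF, 24.7, 19.0 and 21.4 CPM in GF+SCFA and 36.8, 31.5 and 26.2 CPM in ConvD. Its GF and ConvD ranges overlapped (log2 fold change 0.17 ± 0.14, adjusted p = 0.458). Ccnd2 was at 12.3, 10.2 and 13.4 CPM in GF, 9.58, 10.6 and 12.0 CPM in GF+SCFA and 9.95, 7.86 and 10.3 CPM in ConvD, and only the lowest GF liver fell within the ConvD range (log2 fold change -0.36 ± 0.13, adjusted p = 0.0969). Ccnd3 was at 27.8, 26.4 and 26.0 CPM in GF, 28.6, 26.5 and 26.9 CPM in GF+SCFA and 22.2, 23.7 and 23.1 CPM in ConvD. Every ConvD liver lay below the 6 germ-free livers for Ccnd3, and the difference from GF was small and missed the threshold (log2 fold change -0.22 ± 0.07, adjusted p = 0.0696).

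Of the kinases that these cyclins bind, Cdk4, the most abundant G1/S gene per length, was at 20.2, 20.2 and 20.9 CPM in the GF livers, 22.1, 19.7 and 20.9 CPM in the GF+SCFA livers and 22.7, 25.7 and 20.6 CPM in the ConvD livers. The groups overlapped (log2 fold change 0.17 ± 0.09, adjusted p = 0.239). Tspan31, at a mean of 191.7 TPM beside 25.92 TPM for Cdk4, overlaps 641 bases of Cdk4 on the opposite strand. It was not called (log2 fold change -0.12, adjusted p = 0.3583), and whether its reads were counted for Cdk4 was not tested. Cdk6, the close paralog of Cdk4, was at 4.08, 5.34 and 4.74 CPM in GF, 3.40, 3.72 and 2.89 CPM in GF+SCFA and 3.49, 3.47 and 3.14 CPM in ConvD. The 3 GF livers were the highest for Cdk6, above all GF+SCFA and ConvD livers, and neither difference from GF passed the threshold (log2 fold change -0.49 ± 0.16, adjusted p = 0.0570 for ConvD and log2 fold change -0.50 ± 0.16, adjusted p = 0.266 for GF+SCFA). Cdk2, the partner of the E-type cyclins, was at 8.10, 7.67 and 7.04 CPM in GF, 6.18, 6.06 and 6.54 CPM in GF+SCFA and 7.67, 8.84 and 8.88 CPM in ConvD, with the GF+SCFA livers lowest. E2f2, an activating E2F factor, was at 0.652, 0.346 and 0.423 CPM in GF, 0.454, 0.298 and 0.218 CPM in GF+SCFA and 0.679, 0.488 and 0.691 CPM in ConvD, from 4 to 14 counts a library, and the ConvD livers lay above the GF+SCFA livers and overlapped GF. E2f1 ranged from 2.21 to 4.11 CPM, with group means of 3.20 ± 0.79 in GF, 2.83 ± 0.91 in GF+SCFA and 3.23 ± 0.71 in ConvD (SD, n = 3), and the inhibitor Cdkn1b from 6.52 to 12.4 CPM, with a log2 fold change of -0.34 ± 0.17 against GF (adjusted p = 0.22).

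The replication genes that rose were the licensing factor Cdt1 and a pair of helicase subunits. Cdt1, which brings the helicase to origins, was at 0.978, 1.34 and 0.751 CPM in the GF livers, 0.907, 0.646 and 1.15 CPM in the GF+SCFA livers and 1.89, 2.15 and 1.70 CPM in the ConvD livers. All ConvD livers were above all germ-free livers, and the rise over GF was 1.88-fold (log2 fold change 0.91 ± 0.27, adjusted p = 0.0379). Mcm3, a helicase subunit, was at 3.53, 3.37 and 3.15 CPM in GF, 2.78, 3.13 and 3.38 CPM in GF+SCFA and 5.78, 5.91 and 3.93 CPM in ConvD. ConvD replicate 3 was lower than the other ConvD livers but above every germ-free liver (log2 fold change 0.64 ± 0.17, adjusted p = 0.0266 against GF). Mcm5, another subunit of the same ring, was at 2.01, 2.28 and 1.88 CPM in GF, 2.44, 1.94 and 2.35 CPM in GF+SCFA and 3.30, 3.91 and 3.30 CPM in ConvD. Its ConvD livers were again the 3 highest, with a 1.70-fold rise over GF (log2 fold change 0.77 ± 0.18, adjusted p = 0.0129). Mcm7 was at 7.88, 7.72 and 6.67 CPM in GF, 7.60, 6.70 and 7.14 CPM in GF+SCFA and 9.90, 10.8 and 8.13 CPM in ConvD, with the ConvD livers highest, and the difference from GF missed the threshold (log2 fold change 0.38 ± 0.13, adjusted p = 0.0653).

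Mcm2 (log2 fold change 0.43 ± 0.22, adjusted p = 0.207), Mcm4 (log2 fold change 0.15 ± 0.15, adjusted p = 0.555) and Mcm6 (log2 fold change 0.37 ± 0.20, adjusted p = 0.239) had positive differences from GF and were not called. The helicase ring needs 1 copy of each of its 6 subunits, and per length their levels in GF ran from 0.917 TPM for Mcm5 to 4.82 TPM for Mcm7. In ConvD they ran from 1.44 TPM for Mcm2 to 6.58 TPM for Mcm7. Mcm7 shares 64 bases with Cops6 and 421 bases with Ap4m1 on the opposite strand.

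Of the 4 genes for the supply of nucleotides none was called higher and 1 was called lower. Tk1, the S-phase thymidine kinase of the salvage route, was at 26.0, 26.9 and 23.8 CPM in the GF livers, 26.0, 25.4 and 26.5 CPM in the GF+SCFA livers and 18.3, 19.6 and 21.4 CPM in the ConvD livers. The 3 ConvD livers were the lowest, and Tk1 fell by 0.37 on the log2 scale against GF (log2 fold change -0.37 ± 0.08, adjusted p = 0.0127). Tk1 overlaps 169 bases of Afmid on the opposite strand, and Afmid, at a mean of 80.8 TPM, fell too (log2 fold change -0.24, adjusted p = 0.0399); whether reads of 1 gene were counted for the other was not tested. Rrm1, the large subunit of ribonucleotide reductase, was at 7.55, 8.36 and 8.69 CPM in GF, 9.07, 6.95 and 8.89 CPM in GF+SCFA and 10.8, 9.37 and 10.5 CPM in ConvD, with the ConvD livers highest and no call (log2 fold change 0.32 ± 0.12, adjusted p = 0.105). Rrm2, the small subunit that cycling cells make in S phase, was at 3.69, 2.57 and 4.93 CPM in GF, 6.12, 5.02 and 5.13 CPM in GF+SCFA and 6.07, 5.91 and 3.72 CPM in ConvD, and ConvD overlapped GF (log2 fold change 0.49 ± 0.23, adjusted p = 0.191). Tyms, thymidylate synthase, ranged from 8.45 to 11.9 CPM and was not called (log2 fold change -0.03 ± 0.11, adjusted p = 0.887). Pcna, the sliding clamp of DNA polymerases and also a repair factor, was at 23.6, 23.01 and 24.7 CPM in GF, 23.3, 24.1 and 24.3 CPM in GF+SCFA and 23.3, 21.2 and 23.7 CPM in ConvD. The Pcna ranges of the groups overlapped, and the difference was close to 0 (log2 fold change -0.07 ± 0.08, adjusted p = 0.623).

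In mitosis, the kinase Cdk1 and the anaphase activator Cdc20 passed the test against GF, each with a limit. Cdk1, which starts mitosis, was at 0.869, 0.693 and 0.798 CPM in the GF livers, 0.964, 0.993 and 1.25 CPM in the GF+SCFA livers and 1.36, 1.22 and 1.65 CPM in the ConvD livers, from 14 to 31 counts a library. The ConvD livers lay above the GF livers and overlapped GF+SCFA, by 1 liver each (log2 fold change 0.83 ± 0.25, adjusted p = 0.0432 against GF). The Cdk1 call was lost in each of the 9 fits that leave out 1 liver, with DESeq2 (adjusted p = 0.115), with no filter on low counts (0.0573) and with only the 2 groups in the fit (0.0695). Cdc20, which directs the anaphase-promoting complex to its substrates, was at 0.326, 0.149 and 0.141 CPM in GF, 0.284, 0.149 and 0.0545 CPM in GF+SCFA and 0.777, 1.03 and 0.904 CPM in ConvD, that is 6, 3 and 3 counts in GF, 5, 3 and 1 in GF+SCFA and 16, 21 and 17 in ConvD. Every ConvD liver was above every germ-free liver, with a fitted 4.38-fold rise over GF (log2 fold change 2.13 ± 0.44, adjusted p = 0.00724). Cdc20 passed the filter on low counts through the ConvD livers alone, so a call had to come from them. Elovl1 overlaps 53 bases of Cdc20 on the opposite strand and had a log2 fold change of 0.19 (adjusted p = 0.221).

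The proliferation marker Mki67 was at 1.63, 2.18 and 1.69 CPM in GF, 1.76, 0.646 and 1.47 CPM in GF+SCFA and 2.62, 2.93 and 3.67 CPM in ConvD. Its ConvD livers were the 3 highest, and the difference from GF missed the threshold (log2 fold change 0.74 ± 0.27, adjusted p = 0.0822). Top2a, the topoisomerase that untangles sister chromatids, was at 1.25, 1.09 and 1.41 CPM in GF, 1.30, 1.04 and 1.36 CPM in GF+SCFA and 1.55, 1.71 and 2.07 CPM in ConvD, and Bub1b, a kinase-like spindle checkpoint protein, at 0.489, 0.495 and 0.376 CPM in the GF livers, 0.624, 0.248 and 0.382 CPM in the GF+SCFA livers and 0.679, 0.830 and 1.17 CPM in the ConvD livers. For both, the ConvD livers were the 3 highest and no difference from GF was called (log2 fold change 0.50 ± 0.22, adjusted p = 0.158 for Top2a and log2 fold change 0.97 ± 0.36, adjusted p = 0.0956 for Bub1b). Ccna2 (cyclin A2) and Aurka (Aurora kinase A) had small differences (log2 fold change 0.13 ± 0.37, adjusted p = 0.862 and log2 fold change 0.17 ± 0.36, adjusted p = 0.808), from 6 to 16 counts a library. Exosc9, at a mean of 9.66 TPM, overlaps 863 bases of Ccna2 on the opposite strand and was not called (log2 fold change 0.13, adjusted p = 0.4565). Whether its reads were counted for Ccna2 was not tested.

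Birc5, which encodes survivin of the chromosomal passenger complex, gave different pictures by count and per length. It was at 1.03, 0.742 and 0.751 CPM in GF, 0.907, 1.09 and 1.09 CPM in GF+SCFA and 0.971, 0.879 and 1.06 CPM in ConvD, overlapping between groups (log2 fold change 0.21 ± 0.26, adjusted p = 0.649). Per length it was at 0.54, 0.54 and 0.60 TPM in GF, 0.72, 0.68 and 0.72 TPM in GF+SCFA and 1.18, 0.95 and 0.81 TPM in ConvD, which do not overlap. The deposited length of Birc5, a mean over its transcripts weighted by their estimated shares, ran from 2034 to 2911 bases in GF, 1965 to 2585 in GF+SCFA and 1475 to 2033 in ConvD. No other gene of the 40 had a length that differed by over 1.2 times between livers. The shares rest on 15 to 22 counts a library, and a change of transcript was not tested.

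The 6 untested genes were seen at a few counts. Ccnb1, the cyclin that activates Cdk1, had 3, 4 and 6 counts in GF, 2, 5 and 2 in GF+SCFA and 8, 10 and 5 in ConvD, which overlap between ConvD and GF by 1 liver each. Aurkb, the kinase of the chromosomal passenger complex, had 1, 0 and 3 counts in GF, 2, 2 and 2 in GF+SCFA and 8, 7 and 6 in ConvD, which do not overlap. With no filter on low counts Aurkb would have passed against GF (log2 fold change 2.29, adjusted p = 0.0437), at the cost of Cdk1 (adjusted p = 0.0573). Plk1 (Polo-like kinase 1) had 2 to 3 counts in GF, 2 to 3 in GF+SCFA and 4 to 7 in ConvD. Ccnb2 ranged from 0 to 12 counts, Bub1 from 0 to 5 and Cdc6 from 1 to 8, with overlapping groups, and differences in them were not detectable at this depth.

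**Figure D4:**
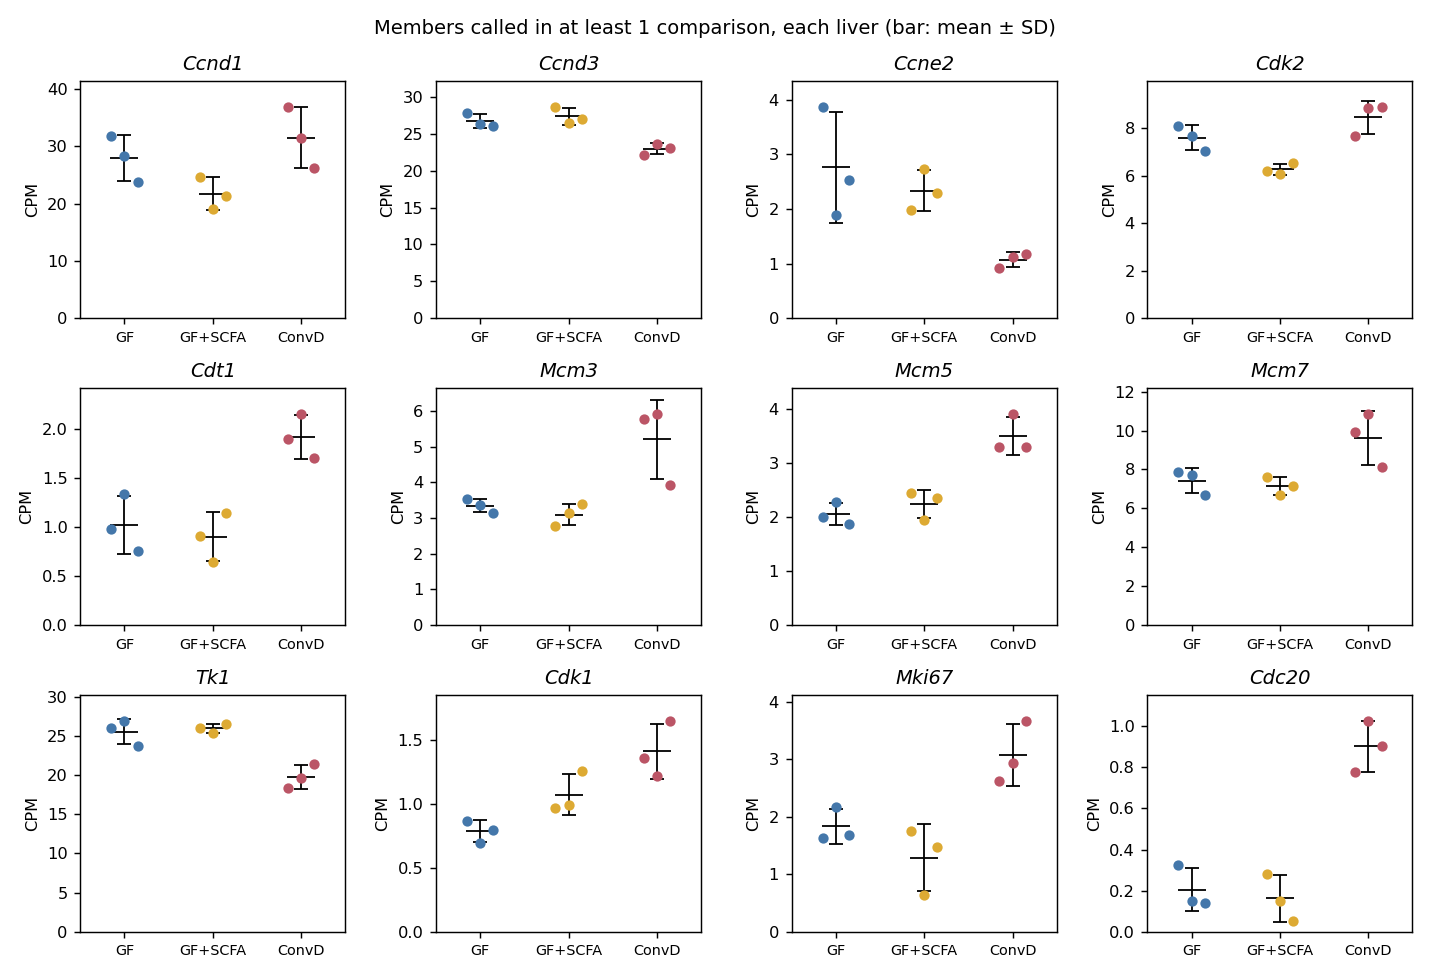
CPM in each liver for the 12 genes called in at least 1 comparison, with points for livers, bars for the mean ± SD and each axis from 0. For Cdt1, Mcm3, Mcm5, Mcm7, Mki67 and Cdc20 the 3 ConvD livers lie above all 6 germ-free livers, and for Ccnd3, Ccne2 and Tk1 below them.

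The 250 bases before the annotated start are shown for 5 genes called higher in ConvD against GF or GF+SCFA, since E2F factors and the MuvB complex are known to act at such sites of cell cycle genes. The windows come from RefSeq (GRCm38.p6, a later build than the mm9 of the tables), which held them for 34 of the 40 genes. They lie at chr1:20820313-20820562 (Mcm3), chr10:69352913-69353162 (Cdk1), chr4:118437344-118437593 (Cdc20) and chr7:135716380-135716629 (Mki67) on the minus strand and at chr8:75109259-75109508 (Mcm5) on the plus strand, and are written 5′ to 3′ on the gene's strand. The bases after the start were found in a GENCODE M21 transcript for 35 of 39 windows of the listed genes, but not for Mcm5, whose outermost GENCODE start lies 60 bases downstream of the RefSeq start on the same strand. Capitals mark matches on either strand, which may overlap, to an E2F word (TTTCCCGC, TTTCGCGC, TTTGCCGC or TTTGGCGC), to the cell cycle homology region (CHR, TTTGAA) and to the CCAAT box.
Mcm3: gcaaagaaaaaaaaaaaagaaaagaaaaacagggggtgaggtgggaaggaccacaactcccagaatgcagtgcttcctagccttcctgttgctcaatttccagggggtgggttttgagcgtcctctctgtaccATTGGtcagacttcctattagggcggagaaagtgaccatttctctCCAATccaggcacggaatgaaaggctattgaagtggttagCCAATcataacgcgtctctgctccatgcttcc
Mcm5: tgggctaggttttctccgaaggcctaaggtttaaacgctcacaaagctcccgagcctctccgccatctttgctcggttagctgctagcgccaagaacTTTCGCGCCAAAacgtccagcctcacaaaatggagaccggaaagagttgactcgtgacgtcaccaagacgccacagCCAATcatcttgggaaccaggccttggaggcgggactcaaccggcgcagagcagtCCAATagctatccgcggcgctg
Cdk1: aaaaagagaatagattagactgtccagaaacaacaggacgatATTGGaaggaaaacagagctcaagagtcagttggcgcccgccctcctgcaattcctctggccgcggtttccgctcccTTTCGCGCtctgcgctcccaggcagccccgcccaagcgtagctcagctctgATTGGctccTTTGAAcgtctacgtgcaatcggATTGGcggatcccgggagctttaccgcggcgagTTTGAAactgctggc
Cdc20: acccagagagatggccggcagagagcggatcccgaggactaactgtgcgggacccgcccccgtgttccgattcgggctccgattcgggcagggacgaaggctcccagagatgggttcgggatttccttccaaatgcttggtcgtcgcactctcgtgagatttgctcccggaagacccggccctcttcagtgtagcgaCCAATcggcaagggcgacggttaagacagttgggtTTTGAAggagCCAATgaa
Mki67: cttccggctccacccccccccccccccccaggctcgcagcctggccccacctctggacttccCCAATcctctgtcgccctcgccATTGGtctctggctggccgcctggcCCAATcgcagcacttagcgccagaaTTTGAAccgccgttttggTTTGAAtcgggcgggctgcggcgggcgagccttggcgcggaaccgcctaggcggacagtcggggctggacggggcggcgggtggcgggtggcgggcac

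The Mcm5 window holds 2 overlapping E2F matches, 153 and 149 bases before the RefSeq start, and 2 CCAAT matches. Mcm3 holds 3 CCAAT matches and no match to the E2F words or the CHR. Cdk1 holds 1 E2F match, 2 CHR matches and 3 CCAAT matches, the nearer CHR 15 bases before the start. Cdc20 holds a CHR match 18 bases before the start and 2 CCAAT matches, and Mki67 2 CHR and 3 CCAAT matches. An E2F word was found for 6 of the 34 genes (17.65%), beside 2.16% of the 27025 genes with such windows. By role it was 4 of 12 replication, 1 of 11 mitosis and 1 of 11 G1/S genes. The CHR was found for 8 of the 34 (23.5%), beside 18.3% of all. By role it was 5 of 11 mitosis (45.5%), 1 of 12 replication and 2 of 11 G1/S genes. CCAAT was found for 23 of the 34 (67.6%), beside 37.5%. By role it was 10 of 11 mitosis (90.9%), 8 of 12 replication and 5 of 11 G1/S genes. Cdt1, which also rose, had none of these letters in its window. A match describes letters and is neither a bound site nor a cause.

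Fatty acids in the drinking water of germ-free mice moved no gene of the list past the threshold. In GF+SCFA against GF, which shares the GF livers with the comparison above, edgeR called 0 of 34, against 0.0415% of all genes (5 of 12037), and DESeq2 also called 0. At an unadjusted p under 0.05 there were 7 of 34 (20.6%), beside 1477 of 12037 (12.3%), and 6 of the 7 lay in G1/S control. The median log2 fold change was -0.23 for G1/S, 0.01 for replication and -0.08 for mitosis, beside -0.01 for all genes. Cdk6 and Cdk2 were lower in all GF+SCFA livers than in all GF livers without passing the adjusted threshold (log2 fold change -0.50 ± 0.16, adjusted p = 0.266 and log2 fold change -0.28 ± 0.12, adjusted p = 0.367). Cdkn2c, an inhibitor of Cdk4 and Cdk6, was at 2.99, 2.97 and 3.01 CPM in GF, 2.04, 1.34 and 2.51 CPM in GF+SCFA and 2.96, 2.93 and 2.98 CPM in ConvD. The 6 GF and ConvD livers lay within 2.93 to 3.01 CPM and all 3 GF+SCFA livers were lower (log2 fold change -0.61 ± 0.21, adjusted p = 0.278). Ccnd1 had a value of the same sign (log2 fold change -0.37 ± 0.14, adjusted p = 0.355), with 1 GF liver inside the GF+SCFA range.

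Cdkn1a, which encodes the inhibitor p21 and is a target of p53, had the highest fold difference of the list in this comparison, and 1 liver decided it. It was at 0.815, 1.24 and 5.21 CPM in GF, 7.26, 6.26 and 8.18 CPM in GF+SCFA and 2.77, 2.64 and 2.34 CPM in ConvD. All GF+SCFA livers were above all other livers, and GF replicate 3 was more than 4 times as high as the other GF livers. Over all livers the difference was 2.91-fold (log2 fold change 1.54 ± 0.56, adjusted p = 0.357). Without GF replicate 3 it was 6.95-fold (log2 fold change 2.80 ± 0.23, adjusted p = 6.09e-05), and ConvD against GF was then 1.32 ± 0.25 (adjusted p = 0.00506) in place of 0.06 ± 0.62 (adjusted p = 0.965). GF replicate 3 also held the highest GF sum of the 24 genes of p53 and growth arrest, 889 CPM against 446 and 535 CPM, and which GF livers are typical was not tested.

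E2f8, a repressing E2F factor, was at 1.90, 2.57 and 2.72 CPM in the GF livers, 3.69, 3.28 and 5.45 CPM in the GF+SCFA livers and 3.83, 5.03 and 2.02 CPM in the ConvD livers. The GF+SCFA livers were above the GF livers, and ConvD spread over both (log2 fold change 0.78 ± 0.31, adjusted p = 0.363). Rrm2 was likewise higher in the GF+SCFA livers than in the GF livers (log2 fold change 0.53 ± 0.23, adjusted p = 0.384). Cholangiocyte markers were at 24.8 to 29.3 CPM in sum in GF+SCFA, below the 41.8 to 47.8 CPM of GF. Most of that sum was Spp1, at 21.9 to 26.0 CPM in GF+SCFA and 36.95 to 43.0 CPM in GF. Of 5 tested markers edgeR called 0, beside 0.0415% of all genes, with 3 under an unadjusted p of 0.05 and 0 with a log2 fold change above 0. Sox9 differed little (log2 fold change -0.12, adjusted p = 0.9009). Leaving out Krt7, which needed a compared group to pass the count filter, DESeq2 called 1 of 4. Of 9 stellate cell and fibroblast markers 1 fell in edgeR, Col3a1 (log2 fold change -0.82, adjusted p = 0.0397), and DESeq2 called 2. The list sums were 311 to 352 CPM in GF+SCFA and 357 to 391 CPM in GF. These markers and those of cholangiocytes come from lists of other cells. Their part in the cell cycle levels was not tested.

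**Figure D5:**
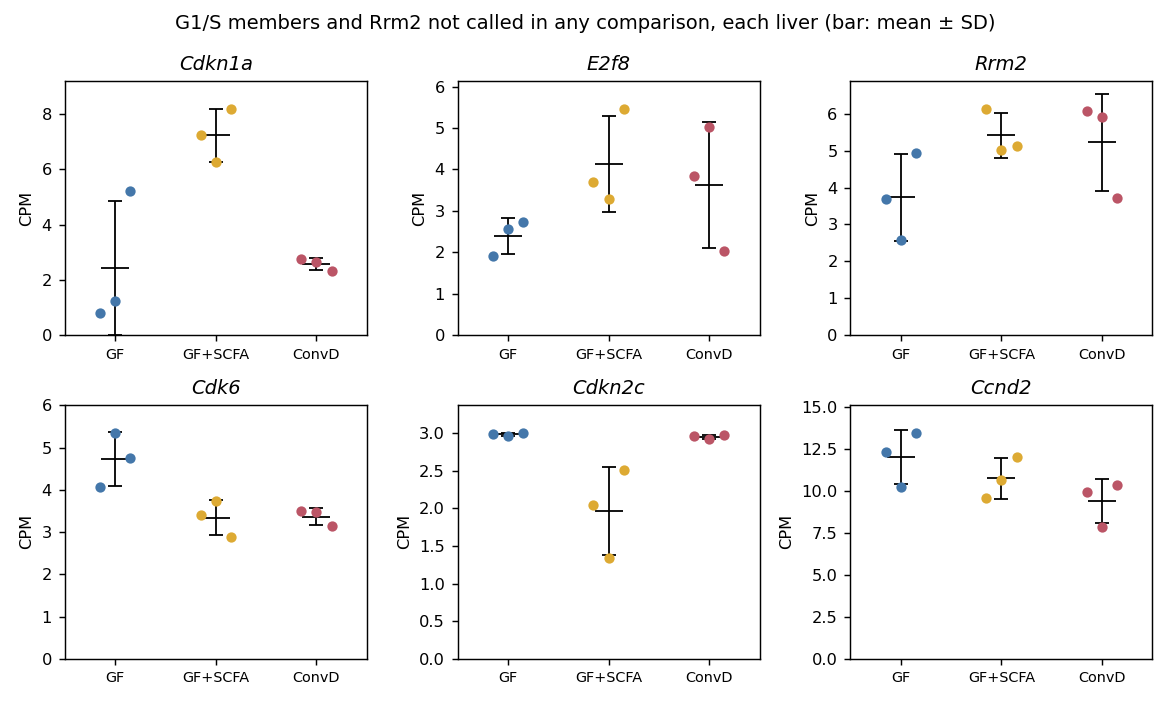
CPM in each liver for 6 genes that no comparison called (Cdkn1a, E2f8, Rrm2, Cdk6, Cdkn2c and Ccnd2), with points for livers, bars for the mean ± SD and axes from 0. For Cdkn1a, GF replicate 3 (5.21 CPM) lies far above the other GF livers (0.815 and 1.24 CPM) and below all GF+SCFA livers.

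Colonized livers were also compared with the germ-free livers given fatty acids, which shares the ConvD livers with the first comparison and the GF+SCFA livers with the second. Of 34 tested genes 11 changed, Cdc20 among them, against 18.4% of all genes (9.44% higher and 8.97% lower). Without Cdc20, Bub1b and E2f2, which again needed a compared group to pass the count filter, 10 of 31 changed (32.3%), beside 18.4% of 11725 such genes. Higher were 7 (22.6%, beside 9.23%) and lower 3 (9.68%, beside 9.16%). By role it was 2 higher and 2 lower of 13 G1/S genes, 4 higher and 1 lower of 12 replication genes, and 1 higher and 0 lower of 6 mitosis genes. Median log2 fold changes were 0.01, 0.31 and 0.33, beside 0.00 for all such genes. Of the 11, 4 were called without GF+SCFA replicate 2, 5 without ConvD replicate 2 and 7 without ConvD replicate 1. With the upper quartile or library totals 12 genes were called, and the share of calls over all genes that were higher went from 51.3% to 66.8% and 72.5%.

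Markers of other cells differed in this comparison too, where 9.44% of all genes tested were called higher and 8.97% lower. Of 9 stellate cell and fibroblast markers 4 were higher in ConvD than in GF+SCFA (Dcn, Col1a1, Col3a1 and Pdgfrb), with sums of 311 to 352 CPM in GF+SCFA and 367 to 385 CPM in ConvD. Of 12 Kupffer cell and macrophage markers 3 were higher (Cd5l, Cd68 and Mpeg1), and of 5 cholangiocyte markers 1, Spp1 (log2 fold change 1.01, adjusted p = 0.00121). Cholangiocyte sums were 24.8 to 29.3 CPM in GF+SCFA and 40.5 to 62.9 CPM in ConvD. Most of these sums was Spp1, at 21.9 to 26.0 CPM in GF+SCFA and 36.8 to 57.1 CPM in ConvD. The plasma cell gene Igj was higher, and so were Cd79a, Cd79b and 4 neutrophil markers, which passed the count filter through the ConvD livers. Of 9 hepatocyte markers 1 was higher (Ttr) and 3 were lower (Cps1, Ass1 and Hnf4a). No T and NK cell, erythroid or sinusoidal endothelium marker was called in edgeR, with 0 of 7, 2 of 8 and 2 of 9 under an unadjusted p of 0.05. DESeq2 called 0, 2 and 0 of them. The part of these cells in the cell cycle levels was not tested.

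In G1/S, Ccnd1 rose 1.45-fold over GF+SCFA (log2 fold change 0.54 ± 0.14, adjusted p = 0.0240) and Cdk2 1.35-fold (log2 fold change 0.43 ± 0.12, adjusted p = 0.0192). For both, every ConvD liver lay above every GF+SCFA liver, while GF lay between or overlapped. Ccnd3 fell by 0.25 on the log2 scale (adjusted p = 0.0323) and Ccne2 by 1.13 (adjusted p = 0.0137). Bysl overlaps 361 bases of Ccnd3 on the opposite strand and fell too (log2 fold change -0.45, adjusted p = 0.02225). Whether reads of 1 gene were counted for the other was not tested. Ccnd3 lost the call under DESeq2 (adjusted p = 0.0547), the upper quartile (0.087) and library totals (0.147). Cdkn1a was at a log2 fold change of -1.48 (adjusted p = 0.114), 0.000104 with only these 2 groups in the fit, and 6.24e-05 without GF replicate 3, which is outside this comparison but enters the shared estimate of spread.

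In replication, Cdt1 rose 2.14-fold (log2 fold change 1.10 ± 0.27, adjusted p = 0.0140), Mcm3 1.68-fold (log2 fold change 0.75 ± 0.18, adjusted p = 0.00987), Mcm5 1.57-fold (log2 fold change 0.65 ± 0.18, adjusted p = 0.0205) and Mcm7 1.35-fold (log2 fold change 0.43 ± 0.13, adjusted p = 0.0316). Of the genes opposite Mcm7, Ap4m1 rose too (log2 fold change 0.48, adjusted p = 0.0253) and Cops6 was not called (log2 fold change 0.11, adjusted p = 0.251). Tk1 fell by 0.39 on the log2 scale (adjusted p = 0.00628). Afmid, opposite Tk1, fell too (log2 fold change -0.25, adjusted p = 0.0232). Reads counted for the wrong gene of such a pair were not tested for. The rise of Mki67 over GF+SCFA was 2.40-fold (log2 fold change 1.26 ± 0.28, adjusted p = 0.00804) and the fitted rise of Cdc20 5.44-fold (log2 fold change 2.44 ± 0.47, adjusted p = 0.00302). Whether Mki67 differed more from GF+SCFA than from GF is the GF+SCFA against GF difference, which was not called (log2 fold change -0.52 ± 0.30, adjusted p = 0.515). Cdk1 was not called here (log2 fold change 0.39 ± 0.24, adjusted p = 0.280).

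Other genes of the same steps were read from wider lists. These counts leave out genes that passed the count filter only with the help of a compared group, and stand beside 12.9% of such genes called in ConvD against GF (5.81% higher and 7.06% lower). Of 24 genes of wider G1/S control edgeR called 0 and DESeq2 also 0, with 3 under an unadjusted p of 0.05; Mycn, a Myc family factor, was left out since it passed through the ConvD livers (log2 fold change 1.84 ± 0.51, adjusted p = 0.0296). Of 44 replication genes 2 rose (4.55%) and 0 fell. Rfc3, a subunit of the clamp loader, was at 2.12, 2.67 and 2.02 CPM in GF, 2.72, 1.94 and 2.56 CPM in GF+SCFA and 4.37, 4.88 and 5.21 CPM in ConvD. All ConvD livers of Rfc3 were above all others (log2 fold change 1.08 ± 0.18, adjusted p = 0.00209). Prim1, the catalytic primase subunit, went from 0.824 ± 0.244 to 1.80 ± 0.39 CPM (SD, n = 3; log2 fold change 1.10 ± 0.27, adjusted p = 0.0189). The median log2 fold change of the 44 was 0.13. Mcm10, which joins the helicase at firing origins, was at 60.5 to 117 CPM and was not called (log2 fold change 0.28 ± 0.18, adjusted p = 0.365).

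Of 28 genes of wider mitosis, 1 rose and 1 fell in ConvD against GF (7.14%). The median log2 fold change of the 28 was 0.03. Nek2, a centrosome kinase, rose (log2 fold change 0.79 ± 0.24, adjusted p = 0.0468), and Wee1, the kinase that holds Cdk1 inactive, fell (log2 fold change -0.37 ± 0.09, adjusted p = 0.0218). A further 8 genes passed the count filter through a compared group, and 2 of them were called: Ckap2, a spindle protein, at 0.163, 0.149 and 0.0939 CPM in GF, 0.0567, 0.0497 and 0.273 CPM in GF+SCFA and 0.582, 0.586 and 0.744 CPM in ConvD (log2 fold change 2.20 ± 0.51, adjusted p = 0.0141), and Cdca8 of the chromosomal passenger complex (log2 fold change 1.44 ± 0.40, adjusted p = 0.0294). Against GF+SCFA, where 18.4% of such genes were called, 1 of 24 wider G1/S genes rose (Mnat1), 3 of 44 replication genes rose (Pola2, Rfc3 and Lig1) and 1 fell (Pole4), and 4 of 29 mitosis genes rose (Nek2, Cenpa, Ncapg2 and Smc4) and 1 fell (Ube2s). Over all tested genes of the 3 lists, GF+SCFA against GF gave 0 of 25, 0 of 45 and 0 of 36 in edgeR, with 3, 2 and 5 genes under an unadjusted p of 0.05.

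Signals upstream of the cycle were mixed. Of 21 genes of p53 and growth arrest that did not need a compared group to pass the filter, 0 rose and 3 fell in ConvD against GF (14.3%, beside 12.9%): Mdm4, an inhibitor of p53 (log2 fold change -0.41 ± 0.09, adjusted p = 0.0116), Btg1, an antiproliferative factor (log2 fold change -0.53 ± 0.14, adjusted p = 0.0340), and Sesn2, a stress-induced sestrin (log2 fold change -0.81 ± 0.19, adjusted p = 0.0137). Eda2r, a receptor that p53 induces, was called higher and passed the filter through the ConvD livers alone. Of 18 growth signal genes chosen the same way 4 were called (22.2%); 1 rose, Cyr61 (log2 fold change 0.65 ± 0.19, adjusted p = 0.0371), and 3 fell: the receptor of hepatocyte growth factor Met (log2 fold change -0.45 ± 0.09, adjusted p = 0.00685), the growth factor Igf1 (log2 fold change -0.29 ± 0.09, adjusted p = 0.0486) and the interleukin-6 receptor Il6ra. Il6ra was at 60.2, 57.9 and 57.4 CPM in GF, 60.6, 58.0 and 51.1 CPM in GF+SCFA and 20.4, 26.6 and 32.6 CPM in ConvD. All ConvD livers of Il6ra were below all germ-free livers (log2 fold change -1.14 ± 0.14, adjusted p = 0.000753). In GF+SCFA against GF, edgeR called 0 of all 24 and 0 of all 19 tested, with 1 and 4 genes under an unadjusted p of 0.05. Of the genes that did not need a compared group there, DESeq2 called 0 of 22 and 1 of 18. Egfr, the receptor of epidermal growth factor, was at 505, 519 and 547 CPM in the GF livers, 773, 819 and 824 CPM in the GF+SCFA livers and 492, 464 and 268 CPM in the ConvD livers. All GF+SCFA livers of Egfr were above all GF livers, with no call in edgeR. Egfr was lower in ConvD than in GF+SCFA (log2 fold change -0.98 ± 0.20, adjusted p = 0.0113).

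The calls differed in how far they rested on single livers. Against GF, Ccne2 was called in 9 of 9 fits that leave out 1 liver. Mcm5 was called in 8 (lost without ConvD replicate 2, adjusted p = 0.056) and Tk1 in 8 (lost without ConvD replicate 1, adjusted p = 0.0571). Cdc20 was also called in 9 of 9, but it passed the count filter through the ConvD livers alone, so these calls are no support. Cdt1 was called in 4 of 9, with adjusted p up to 0.122 (without ConvD replicate 2), Mcm3 in 4 of 9, up to 0.106 (without ConvD replicate 2), and Cdk1 in 0 of 9, at 0.0525 to 0.123. Against GF+SCFA, Mcm3, Tk1 and Mki67 were called in 9 of 9. Cdt1 and Ccne2 were called in 7, Mcm5 in 6, Ccnd1 and Cdk2 in 5, Mcm7 in 4 and Ccnd3 in 3. Cdc20 was called in 9 of 9 there too, with the same limit.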

How the data were processed

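Liver RNA of 9 mice was sequenced from libraries of a stranded mRNA kit, per the labels' protocols. The authors deposited 1 table per liver with expected counts and TPM per gene, made with Bowtie2 and RSEM 1.2.23 on mouse build mm9, per the submitters' processing notes; the strand setting is not given in the sources used here. The tables' gene length is a mean over transcripts weighted by their estimated shares. The expected counts the authors deposited were rounded to whole numbers. Genes were kept by filterByExpr (minimum count 10; 12037 of 20325), scaled by TMM and fitted in 1 no-intercept model of the 3 groups over 9 libraries with edgeR 4.0.16 (quasi-likelihood F test, robust, R 4.3.3). p-values were adjusted over all 12037 genes by Benjamini-Hochberg and called under 0.05; errors of fold changes are standard errors. The fit had 6 residual degrees of freedom and a biological coefficient of variation of 10.6%. Counting noise adds to this spread, the more so the fewer the reads of a gene. The deposited TPM served to compare genes. The design text calls the samples biological replicates, and no library was a copy of another.

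The 40 genes and all lists were chosen with earlier results of these data known. Shown with every liver were genes called in any comparison, genes whose groups did not overlap at an unadjusted p under 0.05, the most abundant gene per role, the D-type cyclins and Mki67, Top2a, Cdk1 and Ccnb1; from each wider list, at most 6 called genes per comparison. Taz was left out of the growth signals, since these tables list tafazzin under it, and Cdk3 and Ticrr were not found under those symbols. Emr1 stood for Adgre1, Igj for Jchain and 2010001M09Rik for Mzb1. Other normalizations, filters, DESeq2 1.42.0, a replicate block and leaving out each liver were tried.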

Additional observations from a re-analysis of the deposited data

How the results depend on the processing

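No called gene changed direction in any alternative that gave an adjusted p. In ConvD against GF, 7 genes were called; DESeq2 called 4 (Cdk1 and Cdt1 lost, no adjusted p for Cdc20), a mean count of at least 50 left 21 genes to test and 3 called, and leaving out 1 liver gave 3 (without ConvD replicate 1 or 2) to 8. In GF+SCFA against GF it was 0 to 1, the 1 being Cdkn1a without GF replicate 3. In ConvD against GF+SCFA, 11 were called; a mean count of at least 50 gave 7, and leaving out 1 liver 4 (without GF+SCFA replicate 2) to 12, with 5 without ConvD replicate 2 and 7 without ConvD replicate 1. No filter gave 7, 0 and 11, unrounded counts 7, 0 and 11, and fits of 2 groups alone 5, 0 and 12. With the replicate number as a replicate block the counts were 6 (Cdt1 lost, adjusted p = 0.0523), 0 and 11. The numbers share no stated origin: deviations of same-numbered livers correlated at -0.07 to 0.14, 1 of 9 pairs over 0.1, and 5 of 9 livers correlated best with their own number. Over all genes, GF+SCFA against GF gave 5 calls in edgeR and 82 in DESeq2, and 0 to 173 on leaving out 1 liver (173 without GF replicate 3). Low counts limit the mitosis genes most: all 13 had a mean count under 50.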
